A study of Mus musculus with 4 samples.

Results

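The nucleolar ribosome biogenesis factors described here are 38 genes that build ribosomal subunits in the nucleolus. They were chosen by name, with earlier results of these data known. All 38 are among the 24421 gene columns of each deposited table. They were followed in single cells sorted as CD138+ B220-, the surface profile of plasma cells, from C57/BL6 mice. One library holds wild-type bone marrow, labelled wild-type in genotype and disease state and, per the design text, an age-matched control. The other 3 hold VQ-D2 myeloma cells, 2 from bone marrow (replicates 1 and 2) and 1 from lymph node. All VQ libraries carry the genotype V{kappa}*MYC, Nras LSL Q61R/+ and IgG1-Cre, marked as recipient, and the disease state multiple myeloma; the labels call the cells donor-derived. Cre under the IgG1 locus acts in B cells that switch to that isotype. No age, treatment or time is given, and nothing says that the VQ marrow pair came from separate animals, so its spread may be technical.

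Ribosomes are assembled around ribosomal RNA, which RNA polymerase I transcribes in the nucleolus. Small nucleolar ribonucleoproteins (snoRNPs) modify that RNA, and large groups of assembly factors then cut and fold it into a small and a large subunit before export. MYC is known to raise transcription of many of these factors, and dividing cells need new ribosomes for each daughter cell.

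The E-box CACGTG, a binding sequence of MYC and its partner MAX, was looked for in the RefSeq promoters of the members (GRCm38.p6, 250 bases before to 50 after the annotated start). The motif reads the same on both strands. Of the 33 members with a promoter entry, 7 (21.2%) held it, against 8.09% of all genes in that table, 12.7% of the genes tested below and 20.2% of 89 other ribosome biogenesis genes. Matches are a description of these letters and not of binding. They are shown because the alleles include a MYC transgene, with the motif in capitals, on the gene's own strand. For Nop2, which methylates ribosomal RNA of the large subunit, the motif begins 60 bases before the start, and the 100 bases upstream are printed (chr6:125131783-125131882, plus strand). The other 6 matches lie after the start, within the first 50 transcribed bases, and only the surrounding window is printed. Those windows are chr7:45830740-45830767 (minus) for Grwd1, chr10:13193092-13193121 (minus) for Ltv1 and chr10:88826765-88826789 (minus) for Utp20. Pes1 is at chr11:3963965-3963994 (plus), Nle1 at chr11:82908355-82908384 (minus) and Wdr43 at chr17:71616220-71616249 (plus).
Nop2: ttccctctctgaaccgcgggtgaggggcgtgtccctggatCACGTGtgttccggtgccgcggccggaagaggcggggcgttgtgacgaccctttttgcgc
Grwd1: gggccggagtcgCACGTGtgaaaccgga
Ltv1: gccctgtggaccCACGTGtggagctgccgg
Utp20: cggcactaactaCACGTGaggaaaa
Pes1: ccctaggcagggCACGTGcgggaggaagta
Nle1: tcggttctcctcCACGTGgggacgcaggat
Wdr43: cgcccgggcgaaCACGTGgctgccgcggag

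Jchain, the joining chain of secreted polymeric antibody, took so many unique molecular identifiers (UMIs, counted transcripts) in wild-type cells that it was left out of every total. Wild-type cells were split at a Jchain share of 5% of a cell's UMIs into 106 Jchain-rich and 57 Jchain-poor cells. A Jchain share between 2% and 10%, near that limit, was held by 27 of the 163 wild-type cells. VQ cells under 5% were used, namely 226, 170 and 185 cells in marrow replicates 1 and 2 and in lymph node. The 5 sums held 162471, 135688, 1039024, 441973 and 799731 UMIs in that order, so wild-type counts limit most comparisons. No cell barcode was shared between libraries. All 10 plasma cell markers, Jchain among them, had a UMI in each of the 5 sums, so their presence sets no sum apart. Without Jchain they made up 1.84% of UMIs in Jchain-rich and 0.424% in Jchain-poor wild-type cells. In the VQ sums they made up 0.683%, 0.743% and 0.783%. These pooled shares hide markers that went opposite ways. In the order of the 5 sums and unscaled, Mzb1 gave 971, 215, 47, 23 and 1089 UMIs, and Fkbp11 41, 8, 660, 337 and 838. Jchain-rich wild-type cells also had a UMI of 7 of 11 B cell precursor markers (39 UMIs in all), and 4 of these cells carried 2 or more. The Jchain-poor wild-type cells were a mixture: 10 of 11 B cell precursor markers had a UMI (775 UMIs in all, Pax5 at 0), 23 cells carried 2 or more of them, 46 carried 2 or more plasma cell markers, and 8 carried 2 or more T cell markers. Neutrophil markers gave 981 UMIs, but only 1 cell carried 2 or more of them. They are therefore named by their Jchain share and not as plasma cells. In VQ marrow replicates 1 and 2 and lymph node, B cell precursor markers gave 20, 8 and 1 UMIs. Il7r, also on the T cell list, made up 19 and 7 of those in marrow. Dntt, Rag1 and Rag2 were at 0 in VQ cells, and Pax5 in every sum. Neutrophil markers gave 1033, 1286 and 1 UMIs, with 2 or more of them in 2, 4 and 0 cells. T cell markers gave 69, 23 and 7 UMIs, with 2 or more of them in 10, 4 and 1 cells. Myc gave 7 and 64 UMIs in the Jchain-rich and Jchain-poor wild-type sums and 1320, 646 and 1113 in the VQ sums. Nras gave 17, 33, 310, 145 and 264 UMIs, the plasma cell surface gene Sdc1 177, 55, 748, 288 and 461, and the leukocyte gene Ptprc 42, 42, 117, 33 and 65. The sums differ in depth, so these counts compare only when scaled to 1000000 UMIs. Scaled and in the same order, Sdc1 was at 1107, 381, 721, 660 and 595, and Ptprc at 263, 291, 113, 75.6 and 83.9. Sdc1 in VQ cells thus lay between the wild-type sums, and Ptprc below both. Myc and Nras lay above both wild-type sums in every VQ sum.

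Together the 38 members made up 0.219% of UMIs in Jchain-rich wild-type cells (355 UMIs, exact 95% Poisson interval 0.196 to 0.242) and 0.510% in Jchain-poor wild-type cells (692 UMIs, 0.473 to 0.549). In VQ marrow they made up 0.879% (9135 UMIs, 0.861 to 0.897) and 0.820% (3623 UMIs, 0.793 to 0.847), and in VQ lymph node 0.894% (7146 UMIs, 0.873 to 0.915). Intervals here and below cover counting error only. The 3 VQ sums thus lay close together, above both wild-type sums, and the Jchain-poor cells lay between. Every one of the 38 members was higher in all 3 VQ sums than in the Jchain-rich wild-type sum, an order held by 46.4% of the 8205 genes tested. Above both wild-type sums in all 3 VQ sums were 33 of 38 members, against 29.3% of genes. The 5 exceptions were Fbl, Nop56, Nop10, Wdr12 and Rrs1, which in Jchain-poor wild-type cells reached a VQ level. From the sums alone, more cells with a gene and more RNA per cell cannot be told apart, and values per cell are given below.

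**Figure D1:**
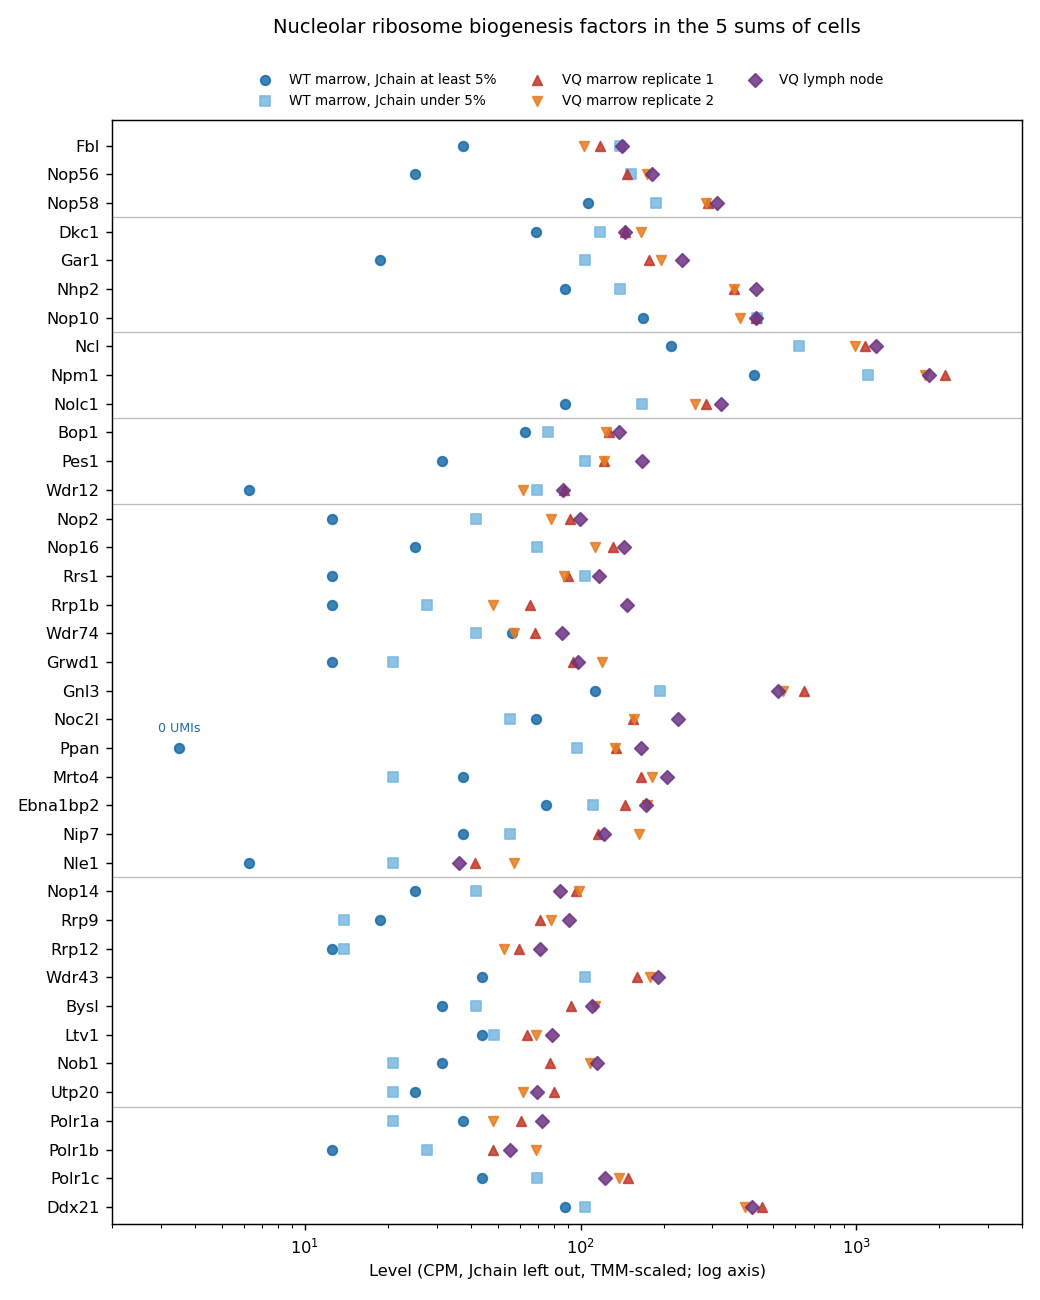
Level of each member in CPM (Jchain left out, scaled by TMM, the trimmed mean of M values), on a log axis, with 1 point for each of the 5 sums and members grouped by role. The 3 VQ points lie to the right of the Jchain-rich wild-type point for all 38 members; Ppan had 0 UMIs there and is drawn at the left edge.

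The first comparison set VQ marrow cells against Jchain-rich wild-type cells. Of 38 members, 34 rose and 0 fell, where 17.8% of all genes tested rose and 13.1% fell (edgeR's quasi-likelihood test, adjusted p under 0.05). All 38 log2 fold changes were positive, with a median of 1.95, also with Ppan at its bound, against 0.17 for all genes. At an unadjusted p under 0.05, 35 members were higher and 0 lower. These p-values rest on the spread of the VQ marrow pair, with 1 residual degree of freedom, and assume that the single wild-type library varies like it. edgeR's prior degrees of freedom, the weight of the spread pooled over genes, were infinite. Each gene was therefore tested with the pooled spread and none of its own, which allows very small p-values. DESeq2, which estimated the spread in another way, gave an adjusted p to 28 of the 38 members. It called 5 of them higher (Ncl, Npm1, Gnl3, Ppan and Ddx21) and 0 lower, where it called 4.41% of the 3217 genes with an adjusted p higher. Of all 38 members, 12 were higher and 0 lower at its unadjusted p under 0.05.

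Values are given per sum as UMIs in the order Jchain-rich wild type, Jchain-poor wild type, VQ marrow replicate 1, replicate 2 and VQ lymph node, then as levels in CPM, UMIs per 1000000 UMIs of the sum after TMM scaling. Folds are ratios of levels with a 95% counting interval, and each log2 fold change has its standard error (SE). For VQ marrow the fold of a gene pools the UMIs of both replicates. It can thus differ from the ratio of the printed levels, which are means of the replicates.

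The nucleolar phosphoproteins gave the most UMIs of any role. Npm1, nucleophosmin, a chaperone that shuttles ribosomal particles out of the nucleolus, had 68, 159, 2171, 773 and 1425 UMIs. Its level was 425 CPM in Jchain-rich and 1101 in Jchain-poor wild-type cells, 1932 ± 226 (SD, n = 2) in VQ marrow and 1839 in VQ lymph node. It was 4.69-fold higher in VQ marrow than in Jchain-rich wild-type cells (3.69 to 6.06), with an edgeR adjusted p of 6.27e-29 and a log2 fold change of 2.19 (SE 0.19). Ncl, nucleolin, which binds nascent ribosomal RNA, had 34, 89, 1114, 432 and 915 UMIs, and VQ marrow was at 1032 ± 58.9 CPM (SD, n = 2) against 213 in Jchain-rich wild-type cells. Its log2 fold change of 2.28 (SE 0.23) was the largest called in this role, a 4.93-fold difference (3.51 to 7.15). The 2 wild-type values lay below all VQ values for both genes, and the 3 VQ values lay close together. Nolc1, a chaperone of snoRNPs, rose as well, with a log2 fold change of 1.64. Npm1 has processed pseudogenes in mammals, which could take or give reads.

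The box C/D snoRNP places methyl groups on ribosomal RNA, with Fbl, fibrillarin, as its enzyme and Nop56 and Nop58 as its scaffold. All 3 rose. Nop58 had 17, 27, 300, 124 and 242 UMIs and was 2.70-fold higher in VQ marrow (1.67 to 4.69), at 286.6 ± 3.44 CPM (SD, n = 2) against 106 in Jchain-rich wild-type cells. The largest change was that of Nop56, with 4, 22, 153, 76 and 141 UMIs and a 6.21-fold higher level (2.39 to 23.0). Fbl had 6, 20, 122, 45 and 109 UMIs and was 3.02-fold higher (1.36 to 8.34). Its level in Jchain-poor wild-type cells, 139 CPM, overlapped the VQ values of 118, 103 and 141, and that of Nop56, 152, lay within the VQ range of 147 to 182.

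The box H/ACA snoRNP turns uridines of ribosomal RNA into pseudouridine, with Dkc1, dyskerin, as its enzyme and Gar1, Nhp2 and Nop10 as partners. All 4 rose. Nop10 had the most UMIs of the role, 27, 63, 450, 165 and 335, and was 2.47-fold higher in VQ marrow than in Jchain-rich wild-type cells (1.68 to 3.78). Gar1 changed most, from 3 UMIs in Jchain-rich wild-type cells to 15 in Jchain-poor cells and 184, 85 and 180 in VQ cells. That made it 9.72-fold higher in VQ marrow (3.29 to 47.4), with an edgeR adjusted p of 3.66e-08 and a log2 fold change of 3.28 (SE 0.54). Nhp2 was 4.11-fold higher (2.43 to 7.56), and Dkc1 2.19-fold (1.20 to 4.45). Nop10 in Jchain-poor wild-type cells, at 436 CPM, was level with VQ cells at 434, 378 and 432, while the other 3 lay below every VQ value there.

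Pes1, Bop1 and Wdr12 form the PeBoW complex, needed to process the RNA of the large subunit. Pes1 and Wdr12 rose and Bop1, at a log2 fold change of 1.00 (SE 0.43), missed the threshold with an edgeR adjusted p of 0.0583. Pes1 had 5, 15, 126, 53 and 129 UMIs and was 3.88-fold higher (1.63 to 12.1). Wdr12 had 1, 10, 90, 27 and 67 UMIs. With 1 UMI in Jchain-rich wild-type cells its 12.7-fold higher level has a counting interval of 2.23 to 505.

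Of the 13 other factors of large subunit assembly, 12 rose and 1, Wdr74, did not pass the test (log2 fold change 0.20, SE 0.51; 1.16-fold, 0.585 to 2.61). Gnl3, nucleostemin, a nucleolar GTPase of proliferating and stem cells, had the most UMIs, 18, 28, 668, 237 and 404. Its VQ marrow level was 593.4 ± 71.0 CPM (SD, n = 2), against 113 and 194 in the wild-type sums and 522 in VQ lymph node. It was 5.45-fold higher than in Jchain-rich wild-type cells (3.43 to 9.24). Ppan had 0, 14, 139, 58 and 128 UMIs, and against a floor of 3 counts in the Jchain-rich sum was at least 7.12-fold higher in VQ marrow. Its fitted change ranks largest in the role only because that sum is at 0; among members with a UMI there it was that of Grwd1. Others called were Rrs1, with 2, 15, 93, 38 and 90 UMIs (7.10-fold, 1.93 to 59.3), Grwd1, a histone-binding factor of ribosome assembly (8.08-fold, 2.20 to 67.3), and Mrto4, with 6, 3, 171, 79 and 159 UMIs (4.52-fold, 2.05 to 12.4). The called log2 fold changes of Nop2, Nop16, Rrp1b, Noc2l, Ebna1bp2, Nip7 and Nle1 ran from 1.05 (Ebna1bp2) to 2.86 (Nle1).

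The 8 factors of small subunit assembly include parts of the early processome (Wdr43, Utp20, Rrp9, Nop14) and late factors (Bysl, Ltv1, Nob1, Rrp12). Of these, 7 rose and Ltv1, an export factor, did not pass the test (log2 fold change 0.58, SE 0.55). Wdr43 had the most UMIs, 7, 15, 166, 78 and 148, and was 3.78-fold higher in VQ marrow (1.81 to 9.50). Rrp12, with 2, 2, 62, 23 and 55 UMIs, had the largest called change, 4.61-fold (1.24 to 38.7). Nob1, the nuclease that makes the final cut of small subunit RNA, was 2.75-fold higher (1.15 to 8.63) and the call for Utp20 (edgeR adjusted p = 0.0477) lay closest to the threshold among the 34.

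Polr1a and Polr1b are the largest subunits of RNA polymerase I, Polr1c is shared with RNA polymerase III, and Ddx21 is a helicase that acts on ribosomal RNA transcription and processing. Polr1b, Polr1c and Ddx21 rose. Polr1a did not pass the test (log2 fold change 0.58, SE 0.59). Ddx21 had the most UMIs and the largest called change, with 14, 15, 470, 172 and 323 UMIs. Its level was 87.6 and 104 CPM in the wild-type sums, 423.5 ± 41.5 (SD, n = 2) in VQ marrow and 417 in VQ lymph node, a 4.97-fold higher level in VQ marrow (2.94 to 9.15).

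**Figure D2:**
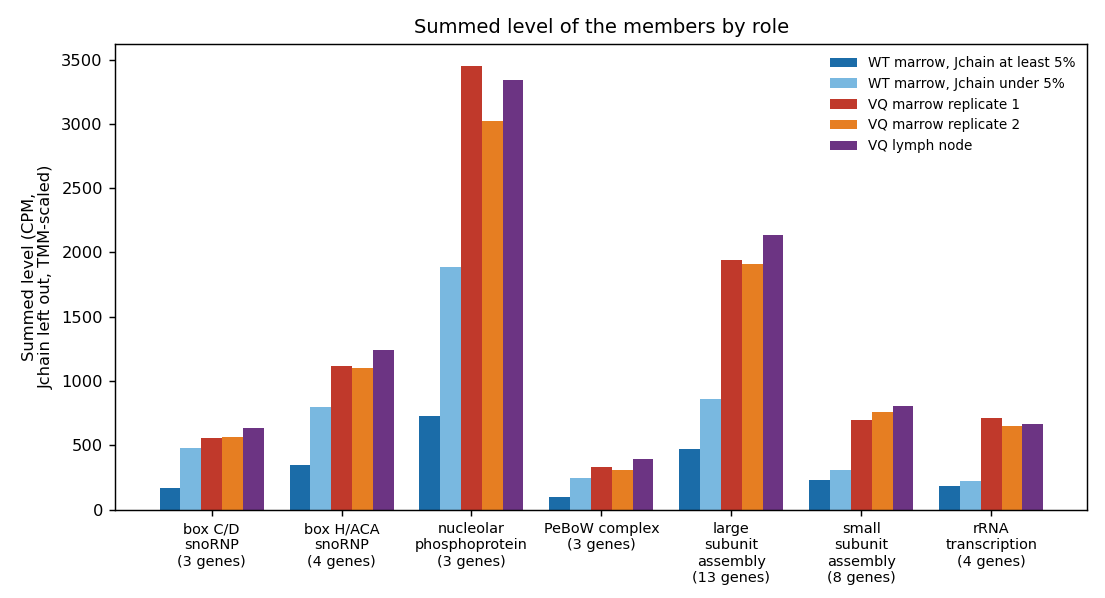
Summed level of the members of each role in CPM without Jchain, 1 bar for each of the 5 sums, with no error bars. Every role is lowest in Jchain-rich wild-type cells, and the VQ marrow mean stands 3.15-fold (small subunit assembly) to 4.46-fold (nucleolar phosphoproteins) above it.

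By role, the summed level in VQ marrow, here the mean of the replicates, was 3.15-fold (small subunit assembly) to 4.46-fold (nucleolar phosphoproteins) that in Jchain-rich wild-type cells. Of the members' UMIs, the nucleolar phosphoproteins took the largest part in each sum, 32.7% in Jchain-rich and 39.3% in Jchain-poor wild-type cells and 36.3% to 39.2% in VQ sums. In the same order, large subunit assembly took 21.1%, 17.9% and 22.0% to 23.2%. Small subunit assembly took 10.4%, 6.36% and 7.96% to 9.14%, and rRNA transcription 8.17%, 4.62% and 7.23% to 8.07%. The box C/D snoRNP took 7.61%, 9.97% and 6.29% to 6.89%. The 2 VQ marrow libraries gave like values, with ratios of replicate 1 to replicate 2 from 0.701 (Polr1b) to 1.40 (Wdr12) over the 38 members and a median of 1.01.

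The second comparison set the same VQ marrow sums against Jchain-poor wild-type cells, which hold B cell precursor and other markers as given above. It shares the VQ sums with the first, and both wild-type sums come from 1 library, so the 2 are not independent. Of 38 members, 14 rose and 0 fell, where 14.0% of all genes rose and 13.1% fell (edgeR, adjusted p under 0.05). At an unadjusted p under 0.05, 19 were higher and 0 lower. Positive log2 fold changes numbered 35, with a median of 0.92 against 0.10 for all genes. The 3 negative values were those of Fbl (-0.30), Rrs1 (-0.23) and Nop10 (-0.09), none of them called. DESeq2, with an adjusted p for all 38, called 0 members in either direction (1.37% of genes higher), with 5 higher and 0 lower at an unadjusted p under 0.05. With a preset coefficient of variation of 0.2 edgeR called 7 higher, where 8.23% of genes were.

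Those called were Nhp2, Npm1, Ncl, Gnl3, Grwd1, Noc2l, Mrto4, Nip7, Rrp9, Rrp12, Nob1, Utp20, Polr1c and Ddx21. The largest difference was that of Mrto4, at 20.8 CPM in Jchain-poor wild-type cells and 172.9 ± 11.5 (SD, n = 2) in VQ marrow (8.16-fold, 2.76 to 39.8). Ddx21 was 4.19-fold higher (2.52 to 7.53) and Gnl3 3.17-fold (2.17 to 4.79). Npm1 and Ncl, at 1.81-fold (1.55 to 2.14) and 1.70-fold (1.37 to 2.13), had smaller differences here. No member of the box C/D snoRNP and of the PeBoW complex was called, and 1 of the box H/ACA snoRNP, Nhp2. Whether the differences in the 2 comparisons themselves differ was not tested. Limited to the 23 Jchain-poor cells with 2 or more precursor markers, a choice made after seeing the data, the members' share was 0.628% (0.577 to 0.682) and edgeR called 10 members higher in VQ marrow, where 13.0% of genes were. Between the wild-type sums, which come from 1 library and were not tested against each other, 16 members were at least 2-fold higher in Jchain-poor cells, against 25.2% of genes, and 31 were higher by any amount, with a median ratio of 1.71. Mrto4 and Polr1a had the lowest ratios, at 0.554.

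**Figure D3:**
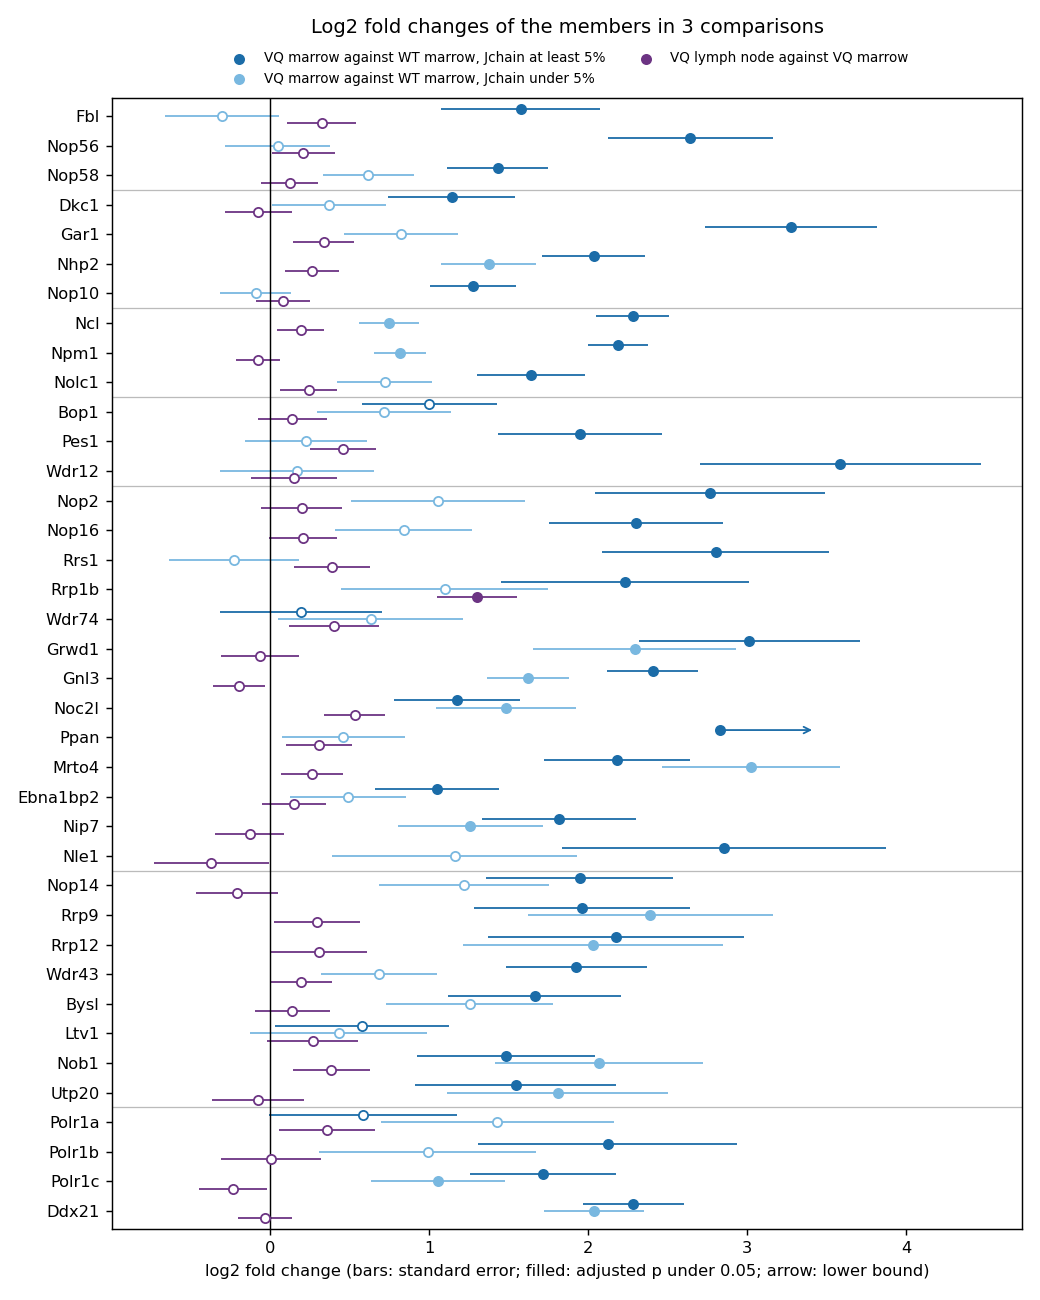
Log2 fold change of each member with its SE in 3 comparisons, filled where the edgeR adjusted p was under 0.05. In the first, 34 of 38 points are filled, in the second 14, and in the third 1 (Rrp1b); the arrow marks the lower bound of Ppan.

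The third comparison set VQ lymph node cells against VQ marrow cells, where few of all genes were called. Of 38 members, 1 rose, Rrp1b, and 0 fell, where 1.90% of all genes rose and 1.33% fell (edgeR, adjusted p under 0.05). Both counts are near the share of all genes. At an unadjusted p under 0.05, 3 were higher and 0 lower, and DESeq2 called 0 either way (0.420% of genes higher), with 0 higher and 0 lower at an unadjusted p under 0.05. It gave an adjusted p to 13 of the members, Rrp1b not among them. Rrp1b, a nucleolar protein that takes part in large subunit processing and also binds chromatin, was at 147 CPM in lymph node and at 65.5 and 48.1 in the marrow replicates. That was 2.44-fold higher (1.83 to 3.25), with an edgeR adjusted p of 2.35e-05 and a log2 fold change of 1.30 (SE 0.25). This call was lost with a preset coefficient of variation of 0.2 (0 members called, 0.500% of genes higher) and with cells thinned to 500 UMIs. Among all members 28 log2 fold changes were positive and 10 negative, with a median of 0.19 against -0.02 for all genes. The negative values were those of Dkc1, Npm1, Grwd1, Gnl3, Nip7, Nle1, Nop14, Utp20, Polr1c and Ddx21, from -0.37 (Nle1) to -0.03 (Ddx21). Against Jchain-rich wild-type cells, with 1 sum a side and not tested, 35 members were at least 2-fold higher in lymph node, where 28.7% of genes were, and the median ratio was 4.36.

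Per cell, the members' share of UMIs had a median of 0.195% in Jchain-rich wild-type cells (quartiles 0.0998 and 0.290) and 0.280% in Jchain-poor cells (0.120 and 0.701). It was 0.848% (0.670 and 0.998), 0.789% (0.615 and 0.960) and 0.848% (0.689 and 1.04) in VQ marrow replicates 1 and 2 and VQ lymph node. The wide quartiles of the Jchain-poor cells reach from the Jchain-rich level to the VQ level. Above 0.408%, the 90th percentile of Jchain-rich wild-type cells, lay 22 of 57 Jchain-poor cells, 201 of 226 (88.9%) and 152 of 170 (89.4%) VQ marrow cells and 176 of 185 (95.1%) VQ lymph node cells. Cells are not replicates, and these shares carry no test. The median number of members with a UMI was 2, 3, 17, 11.5 and 16 in the order of the sums, at median depths of 1998.5, 2046, 4700, 2646 and 3978 UMIs per cell.

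Depth was evened out by thinning each cell to 500 UMIs, which left out 11, 11, 5, 20 and 0 shallower cells. The mean number of member UMIs per cell was then 0.989 and 2.07 in Jchain-rich and Jchain-poor wild-type cells and 4.03, 3.73 and 4.27 in VQ cells. At least 5 member UMIs were seen in 0 of 95 Jchain-rich wild-type cells, with an exact 95% upper bound of 3.81%. The rougher rule of 3 divided by the number of cells gives 3.16%. Among Jchain-poor cells, 6 of 46 held at least 5 (13.0%, exact 95% interval 4.94 to 26.3). In VQ cells the shares were 83 of 221 (37.6%, 31.2 to 44.3), 50 of 150 (33.3%, 25.9 to 41.5) and 79 of 185 (42.7%, 35.5 to 50.2). In the sums of thinned cells 24 members passed the filter on low counts, and edgeR called 11 higher against Jchain-rich wild-type cells, where 12.4% of the 2628 genes tested were higher, and 2 against Jchain-poor cells, where 4.87% were. The 2 of 24 is near the share of all genes. All cell types use these genes, so no cell type gives a background share.

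**Figure D4:**
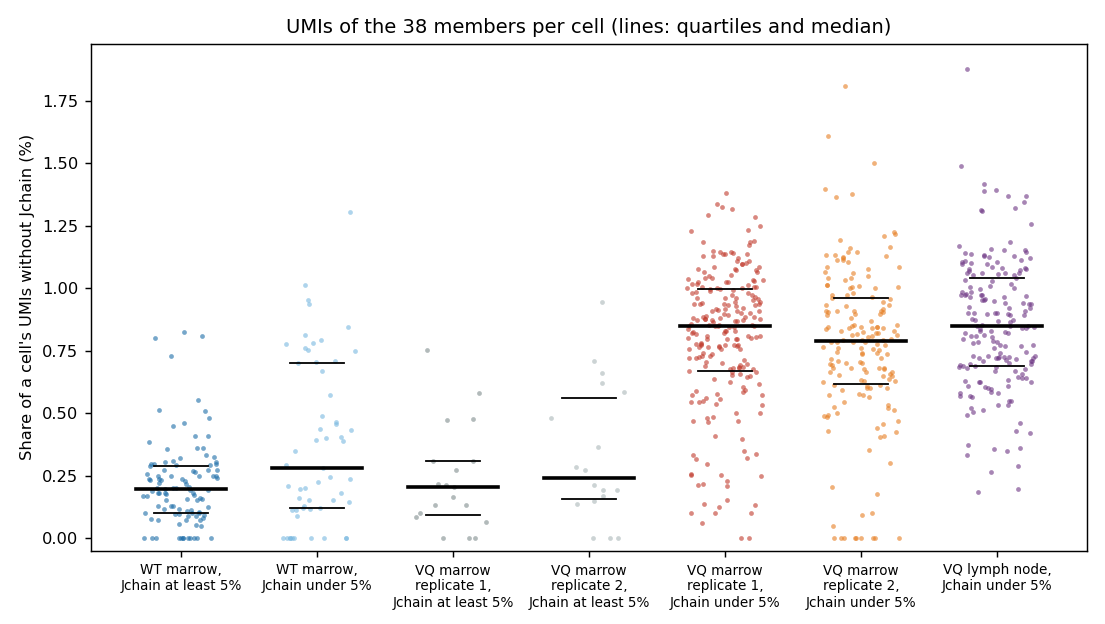
Share of each cell's UMIs, without Jchain, that came from the 38 members; points are cells, thick lines medians and thin lines quartiles. Medians are 0.195% and 0.280% in wild-type cells and 0.789% to 0.848% in VQ cells under 5% Jchain, while the VQ marrow cells with at least 5% Jchain lie near the wild-type cells.

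Cell division genes, like the members, were seen in more of the VQ cells than of the wild-type cells. Within Jchain-rich wild-type cells the members' share was nearly the same with (0.217%) and without (0.221%) a division UMI. In the Jchain-poor wild-type sum and each VQ sum compared here it was higher with a division UMI, by the values given below. A UMI of any of 40 division genes was held by 55.7% of Jchain-rich and 61.4% of Jchain-poor wild-type cells and by 94.7%, 87.1% and 91.4% of VQ cells; thinned to 500 UMIs, the shares were 26.3%, 43.5%, 77.4%, 78.0% and 77.3%. In cells with no division UMI the members' share was 0.221% (47 cells, 0.185 to 0.261) in Jchain-rich and 0.270% (22 cells, 0.209 to 0.342) in Jchain-poor wild-type cells. It was 0.277% (12 cells, 0.192 to 0.387) and 0.445% (22 cells, 0.345 to 0.566) in VQ marrow and 0.755% (16 cells, 0.663 to 0.855) in VQ lymph node. The VQ marrow cells without a division UMI were shallow, with medians of 900.5 and 498 UMIs, against 1730.5 in lymph node. In cells with a division UMI, the share was 0.217% in Jchain-rich wild-type cells, 0.565% in Jchain-poor cells and 0.886%, 0.833% and 0.899% in VQ cells. In the sums of cells without a division UMI, 6 members passed the filter on low counts and edgeR called 0 in any of the 3 comparisons, also at an unadjusted p under 0.05. Of the 853 genes tested there, 2.93% were higher in VQ marrow against Jchain-rich cells, 0.00% against Jchain-poor cells and 0.00% in lymph node against marrow. The part of cell division in the results above was not tested.

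Further genes of ribosome biogenesis came from a list of 114 symbols, 106 of them in the tables and 103 tested. Against Jchain-rich wild-type cells 41 were higher and 1 lower in VQ marrow, where 17.8% and 13.1% of all genes were, with a median log2 fold change of 1.00, or 0.91 with 2 genes at their bound. Against Jchain-poor cells edgeR called 19 higher and 0 lower (29 and 1 at an unadjusted p under 0.05), with a median of 0.69. Of all genes, 14.0% were higher and 13.1% lower there. Between lymph node and marrow 0 were called by edgeR (6 higher and 1 lower at an unadjusted p under 0.05), with a median of 0.11. Only 1.90% of all genes were higher and 1.33% lower in that comparison. DESeq2 called 0 of these genes in each comparison, out of 51, 93 and 15 with an adjusted p. It called 4.41%, 1.37% and 0.420% of all genes with an adjusted p higher. At its unadjusted p under 0.05, 5, 5 and 0 of these genes were higher and 0 lower. Nol9, a kinase of large subunit RNA processing, had 1 UMI in Jchain-rich wild-type cells and 115 and 53 in VQ marrow (18.2-fold, 3.23 to 724). Rrp15 had 2 and then 117 and 52 (9.16-fold, 2.50 to 76.3). Urb2 and Taf1c, a subunit of the RNA polymerase I selectivity factor, had 0 UMIs in Jchain-rich wild-type cells and were at least 1.55-fold and 1.27-fold higher. These 2 rank among the largest only by a fitted value over a group at 0. Of the called genes with a UMI there, chosen after their values were seen, Ddx51 (8.78-fold, 1.53 to 351) and Naf1 (7.48-fold, 1.30 to 299.8) came next after Rrp15. The 1 lower gene was Gnl3l, a GTPase related to Gnl3, with 17 UMIs in Jchain-rich wild-type cells and 22 and 5 in VQ marrow, at 0.172 of the wild-type level (0.0905 to 0.337).

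Some counts could include reads of other genes, since whether strand was used in counting is not given in the sources used here. In the GENCODE annotation of GRCm38, 7 members share their 3′ end with a protein-coding gene: Nop56 with Idh3b, Dkc1 with Mpp1, Nhp2 with Rmnd5b, Bop1 with Mroh1, Noc2l with Samd11, Nle1 with Fndc8 and Bysl with Ccnd3. Members that carry small nucleolar RNAs in their gene bodies also number 7, with 21 such RNAs in all. Nop56 hosts 5 of them and Nop58 4. Ncl, Gnl3 and Wdr43 host 3 each, Ppan 2 and Dkc1 1. The small RNAs themselves were not analysed here. Mrto4 has 2 annotated pseudogenes.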

How the data were processed

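The values are unscaled UMI counts as deposited, which the authors made from ddSEQ droplet libraries with the SureCell 3′ kit, per the labels, on mm10, per the submitters' processing notes. The counting tool is not given in the sources used here. Counts were summed per library and Jchain class (at least 5% or under 5% of a cell's UMIs), leaving out Jchain. The 5 sums entered 1 fit of 4 group means in edgeR 4.0.16 (R 4.3.3; TMM, filterByExpr, quasi-likelihood test), with Benjamini-Hochberg adjustment over 8205 genes and a threshold of 0.05. The common biological coefficient of variation was 0.0923. SEs are the log2 fold change over the square root of F. DESeq2 1.42.0 was an alternative. Folds of genes at 0 use a floor of 3 counts over the group. Members and lists were chosen with earlier results of these data known. Named in full were, per role, the member with most UMIs, the called member with the largest fitted change in the first comparison, members opposite in direction to most and those called in lymph node; of the other biogenesis genes, the 4 called with the largest fitted change each way. Also named were genes with a further property, chosen after their values were seen. Doublets were not called.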

Additional observations from a re-analysis of the deposited data

How the results depend on the processing

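Each comparison is named here by what VQ marrow was set against: Jchain-rich cells, Jchain-poor cells or lymph node. Members called, all of them higher, numbered 34, 14 and 1, where 17.8%, 14.0% and 1.90% of all genes tested were higher. In the third, higher means higher in lymph node. DESeq2 called 5, 0 and 0 (28, 38 and 13 members with an adjusted p), where 4.41%, 1.37% and 0.420% of genes were higher. Thinning to 500 UMIs gave 11, 2 and 0 (24 members tested), where 12.4%, 4.87% and 19 of 2628 genes were higher. Leaving out cells with a division UMI gave 0, 0 and 0 (6 members tested), where 2.93%, 0.00% and 0.00% of genes were higher. A preset coefficient of variation of 0.2 left 23, 7 and 0. The other settings (library totals, Jchain kept, no filter, Jchain limits of 2% and 10%, all VQ cells, cells of other types left out) gave 24 to 35, 10 to 16 and 1. Without division UMI cells the log2 fold changes of Nop10 (-0.63) and Gnl3 (-0.17) against Jchain-rich cells and of Gnl3 (-0.26) against Jchain-poor cells reversed. None of these was called. They rest on few counts, as all members together had 34 and 67 UMIs in the VQ marrow replicates there. The Jchain-rich and Jchain-poor sums there held 135 and 68. Leaving out either VQ marrow replicate left no residual degree of freedom; positive log2 fold changes then numbered 38 to 38, 34 to 34 and 28 to 29.

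The members' share of UMIs moved beyond its interval in some settings. In Jchain-rich cells it was 0.174% with Jchain kept in the total. In Jchain-poor cells it was 0.270% without division UMI cells, 0.413% thinned and 0.628% in precursor-marked cells alone, a setting added after seeing the data. In VQ marrow replicate 1, replicate 2 and lymph node it was 0.277%, 0.445% and 0.755% without division UMI cells and 0.806%, 0.745% and 0.854% thinned. The filters on cells leave fewer UMIs and fewer genes tested; for DESeq2 the cause was not tested. Low wild-type counts (26 of 38 members under 10 UMIs in the Jchain-rich sum) limit every fold. No paired analysis was possible because replicate numbers exist in 1 group only.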

Other observations

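The VQ marrow libraries also held a few cells with Jchain at 5% or more of their UMIs, 19 in replicate 1 and 18 in replicate 2, which enter no comparison above and were looked at after seeing the data. All 10 plasma cell markers had a UMI in both, as in the 5 sums compared above. The 38 members made up 0.222% of their UMIs in replicate 1 (38 UMIs, exact 95% interval 0.157 to 0.305) and 0.321% in replicate 2 (34 UMIs, 0.222 to 0.448), against 0.219% in Jchain-rich wild-type cells and 0.879% and 0.820% in the remaining VQ marrow cells of the same libraries. Npm1, Ncl and Nolc1 together gave 11 and 12 of these UMIs, and the 4 rRNA transcription genes 3 and 0. Myc had 4 and 0 UMIs in these cells. Their median depth was 1064 and 699.5 UMIs, below that of the other cells, and thinned to 500 UMIs the members' share was 0.247% (17 cells) and 0.364% (11 cells). Whether they are donor or host cells cannot be told from the labels, and with so few UMIs no member can be compared alone.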
